A study of Mus musculus with 5 samples.

Results

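The 2'-5' oligoadenylate synthetase (OAS) genes were described across the 5 RNA-seq libraries of a LINE-1 activation experiment in NIH3T3 cells, an established mouse fibroblast line. The family was taken as the 7 symbols Oas1a, Oas1b, Oas1g, Oas2, Oas3, Oasl1 and Oasl2, and all 7 were found among the 21259 genes of the cellular gene table. In all libraries the cells stably carried a dCas9 activator, a cleavage-dead Cas9 that raises transcription where a guide RNA places it. Of the libraries, 3 came from cells given a plasmid for sgRNA against the LINE-1 promoter, and the other 2 from cells given a scramble sgRNA plasmid, each harvested 48 h after transfection. No source used here gives the guide sequences, the activator domain or whether libraries came from separate cultures, so p-values measure the spread between these libraries only.

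OAS proteins are enzymes of the interferon response that are switched on by double-stranded RNA. Active members join ATP into short chains with 2'-5' bonds (2-5A), a messenger that sets off the cutting of viral and cellular RNA. In fibroblasts the genes are held low until interferon reaches its receptor and the ISGF3 complex, which holds Stat2 and Irf9, binds interferon-stimulated response elements (ISREs) near their starts. Mice have many OAS1 copies in a cluster with Oas2 and Oas3, and a separate pair of OAS-like genes whose proteins end in ubiquitin-like domains.

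All 7 genes lie on chromosome 5 in GENCODE release M21 (GRCm38). Oas2 (120730333 to 120749853), Oas3 (120753098 to 120777661), Oas1g (120876142 to 120887613) and Oas1a (120896256 to 120907521) are on the minus strand, and Oas1b (120812635 to 120824163) is on the plus strand of the same cluster. Oasl2 (114896936 to 114912234) and Oasl1 (114923240 to 114937915) stand next to each other on the plus strand. GENCODE lists 6 of the 7 as protein coding and Oas1b as a polymorphic pseudogene, because the gene is cut short by a stop codon in many laboratory strains.

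RefSeq promoter windows (GRCm38.p6, 250 bases before to 50 bases after the start) were available for 5 of the 7 genes: Oas1a, Oas1g, Oas3, Oasl1 and Oasl2. They were searched on both strands for an ISRE core (GAAANNGAAA) and a core of the gamma-activated site, GAS (TTCNNNGAA). Among all 32851 promoter windows of this length 3.44% held an ISRE core and 8.30% a GAS core. Oas1a and Oas1g each held 2 ISRE cores that overlap by some bases, Oas3 held 1, and Oasl1 and Oasl2 held none, while the single GAS core was in Oas1a. A match of this kind describes the letters of the window and does not show that a factor binds there. The lack of a match covers only these exact letters in these windows, and does not show that a gene has no ISRE. The 150 bases before the start of the genes with a match are printed to show where the cores lie, with the ISRE cores in capitals. Oas1a and Oas1g are much alike near the start, while Oas1c and Oas3 differ from them in most of the window.
Oas1a, chr5:120907526-120907675, minus strand: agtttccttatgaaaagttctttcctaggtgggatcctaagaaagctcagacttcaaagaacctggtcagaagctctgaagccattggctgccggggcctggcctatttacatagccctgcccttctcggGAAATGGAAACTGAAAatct
Oas1g, chr5:120887614-120887763, minus strand: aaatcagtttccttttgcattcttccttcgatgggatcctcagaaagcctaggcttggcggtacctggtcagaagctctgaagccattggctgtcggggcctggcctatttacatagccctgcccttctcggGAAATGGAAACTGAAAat
Oas1c, chr5:120812515-120812664, minus strand: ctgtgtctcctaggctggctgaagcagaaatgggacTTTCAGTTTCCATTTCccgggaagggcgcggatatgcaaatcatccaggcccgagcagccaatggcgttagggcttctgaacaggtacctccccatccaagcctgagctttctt
Oas3, chr5:120777660-120777809, minus strand: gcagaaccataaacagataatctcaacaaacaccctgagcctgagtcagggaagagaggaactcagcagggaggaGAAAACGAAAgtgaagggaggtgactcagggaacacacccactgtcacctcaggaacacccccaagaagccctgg

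The 16 bases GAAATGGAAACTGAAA stand 5 to 20 bases before the start in Oas1a and 3 to 18 bases before it in Oas1g. The same 16 bases are in the window of Oas1c, an OAS1 copy outside the 7, on the opposite strand 99 to 114 bases before its start. By GENCODE coordinates that copy lies 7 to 22 bases before the start of Oas1b, which is transcribed the other way from the same stretch. Across the 32851 windows, on either strand, the 16 bases occur in 7 windows of 5 genes: Oas1a, Oas1c, Oas1g, Apol9a and Apol9b.

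**Figure D1:**
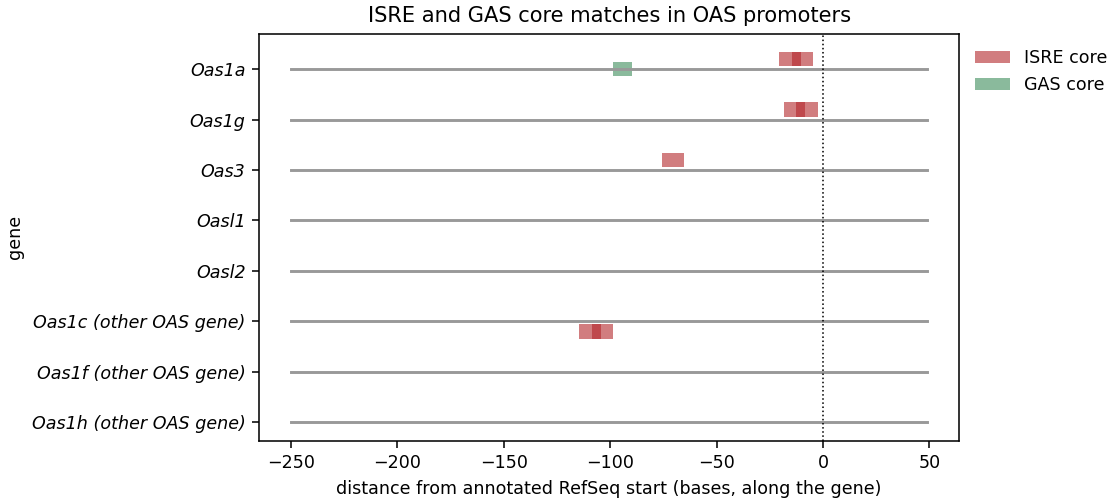
Positions of ISRE core matches (red, overlaps darker) and GAS core matches (green) in the RefSeq promoter windows of 8 OAS genes, with distance from the annotated start in bases on the x axis and 1 line per gene. Red boxes above a line are on the gene's own strand and those below it on the other strand; Oasl1, Oasl2, Oas1f and Oas1h have no match.

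The libraries divide back into 35996907 to 45596490 reads over genes with LINE-1 sgRNA and 30681384 and 36726985 with scramble, and 1 read is worth 0.676 to 1.07 normalized reads, the unit of all levels below. The young LINE-1 repeat name L1MdTf_I, a check of the intended activation, had 655, 717 and 643 normalized reads with LINE-1 sgRNA and 329 and 313 with scramble. Marker counts are to be read against all tested genes, of which 18.2% were called higher and 25.4% lower. Of 8 fibroblast markers 7 fell, with Col1a1 still at 84173 to 89548 normalized reads with LINE-1 sgRNA, against 137388 and 141831 with scramble. Of the 10 leukocyte markers 8 were tested, 4 rose and none fell, and their summed level was 919 to 940 with LINE-1 sgRNA and 757 to 829 with scramble. Most of that sum was Csf1r, which did not pass, at 468 to 564 with LINE-1 sgRNA and 526 and 622 with scramble. The 4 that rose were Adgre1 (18.9 to 30.6 with LINE-1 sgRNA, 1.07 and 1.82 with scramble), Laptm5 (42.9 to 60.2 with LINE-1 sgRNA, 6.42 and 6.36 with scramble), Cd68 (238 to 266 with LINE-1 sgRNA, 162 and 141 with scramble) and Ptprc, the CD45 gene (5.25 to 30.1 with LINE-1 sgRNA, 3.21 and 6.36 with scramble, with overlap). Of the 5 epithelial markers 2 were tested, of the 5 endothelial markers 3 were tested, and none of these passed as higher or lower. No marker was at 0 in every library, and the part of these markers in the OAS results was not tested. In bulk RNA a larger share of responding cells and more RNA per responding cell cannot be told apart.

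All 7 OAS genes rose with LINE-1 sgRNA, and for each of them every LINE-1 sgRNA library stood above both scramble libraries. Their median change was 3.05 on the log2 scale, against -0.063 over all 14337 tested genes. Of all tested genes 18.2% were called higher and 25.4% lower at an adjusted p below 0.05 in limma. Every LINE-1 sgRNA library was above both scramble libraries in 24.6% of the tested genes. The summed level of the 7 genes was 4543, 4998 and 4426 normalized reads with LINE-1 sgRNA and 336 and 227 with scramble, which is 16.5-fold between the means. Behind these levels stand 5888, 7395 and 5058 recovered reads with LINE-1 sgRNA and 314 and 250 with scramble.

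**Figure D2:**
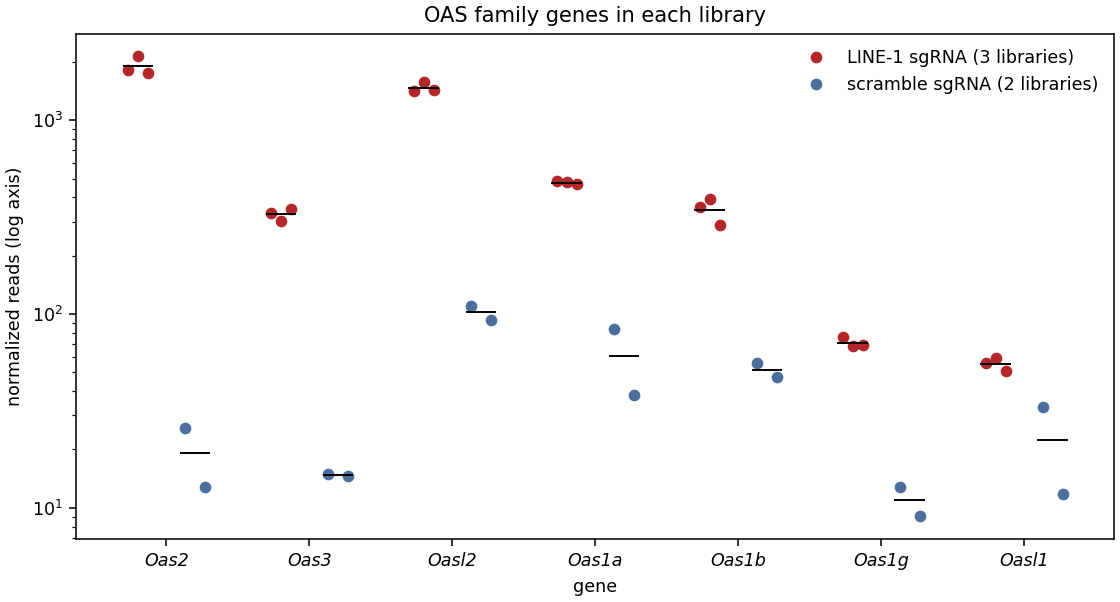
Normalized reads (log axis) of the 7 OAS genes in each library, LINE-1 sgRNA in red and scramble in blue, with a line at each group's mean. No LINE-1 sgRNA point overlaps a scramble point of the same gene; the gap is widest for Oas2 and narrowest for Oasl1.

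The OAS1 copies encode the smallest enzymes, with a single catalytic unit. Oas1a, an active synthetase, had 483, 477 and 470 normalized reads with LINE-1 sgRNA and 83.5 and 38.2 with scramble. The LINE-1 sgRNA libraries were nearly level, while the scramble libraries lay more than 2-fold apart. Oas1a rose by 3.05 on the log2 scale (SE 0.22, limma adjusted p = 5.5e-09), 7.83-fold between the means. Without scramble library 2 the rise was 2.50 and without scramble library 1 it was 3.61, the lowest and highest values when a library was left out.

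Oas1b is the gene whose full-length form protects mice against flaviviruses, although its protein makes no 2-5A. It had 356, 392 and 289 normalized reads with LINE-1 sgRNA and 55.7 and 47.3 with scramble, so both groups were tight relative to the gap between them. The rise was 2.72 (SE 0.16, limma adjusted p = 5.0e-10), 6.72-fold between the means. The table does not say which allele these cells carry, and a rise in transcript says nothing of whether full-length protein can be made.

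Oas1g, a near copy of Oas1a, was scarcer, with 76.4, 68.3 and 69.1 normalized reads with LINE-1 sgRNA and 12.8 and 9.09 with scramble. It rose by 2.61 (SE 0.27, limma adjusted p = 7.3e-07) from scramble libraries that held only 12 and 10 reads. The level of Oas1g cannot be cleanly separated from that of Oas1a: of all 50-base words in Oas1a transcripts 57.6% also occur in Oas1g, and of those in Oas1g 45.2% occur in Oas1a. At 100 bases the shares are 40.9% and 31.3%, and no source used here says how the authors placed such reads. Summed, the pair had 559, 545 and 539 normalized reads with LINE-1 sgRNA and 96.4 and 47.3 with scramble, 7.63-fold between the means. Among the other 5 genes the share of 50-base words found in other genes was at most 2.98%, in Oas1b.

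Oas2 and Oas3 encode larger enzymes built from repeated OAS units, of which Oas3 is the longest and in human cells the main source of 2-5A. Oas2 had 1822, 2133 and 1760 normalized reads with LINE-1 sgRNA and 25.7 and 12.7 with scramble, the widest gap in the family. The scramble values stand for 24 and 14 reads. Oas2 rose by 6.63 (SE 0.19, limma adjusted p = 2.7e-14), 99.2-fold between the means, and ranked 40 among the 14337 tested genes by log2 change. When a library was left out the rise was between 6.15 and 7.11, and the other settings gave 6.17 to 6.73.

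Oas3 had 333, 301 and 347 normalized reads with LINE-1 sgRNA and 15.0 and 14.5 with scramble. Its libraries agreed closely within each group, although the scramble values rest on 14 and 16 reads. The rise was 4.38 (SE 0.18, limma adjusted p = 2.0e-12), 22.2-fold between the means. Oas2 and Oas3 are neighbours on the same strand, yet the log2 ratio of Oas2 to Oas3 was 2.45, 2.82 and 2.34 in the LINE-1 sgRNA libraries and 0.74 and -0.18 in the scramble libraries. Oas2 therefore gained on Oas3 in each LINE-1 sgRNA library.

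Of the OAS-like genes, Oasl2 encodes an enzyme that still makes 2-5A, whereas the mouse Oasl1 protein has lost this activity and is known to hold back translation of Irf7 mRNA. Oasl2 had 1416, 1567 and 1440 normalized reads with LINE-1 sgRNA and 110.3 and 93.6 with scramble. It rose by 3.84 with the smallest error in the family (SE 0.10, limma adjusted p = 5.2e-15). Its range when a library was left out was 3.73 to 3.96.

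Oasl1 changed least. It had 55.6, 59.5 and 50.8 normalized reads with LINE-1 sgRNA and 33.2 and 11.8 with scramble, so that the scramble libraries differed from each other more than scramble library 1 differed from any LINE-1 sgRNA library on the log2 scale. The rise was 1.42 (SE 0.34, limma adjusted p = 0.0029), 2.46-fold between the means. Without scramble library 2 it was 0.72 and no longer passed (adjusted p = 0.056), and without scramble library 1 it was 2.13. The antisense gene Gm13822 overlaps exons of Oasl1, and without knowing whether reads were counted by strand the 2 cannot be told apart.

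In order of change the genes were Oas2, Oas3, Oasl2, Oas1a, Oas1b, Oas1g and Oasl1. Taking 2 SE on each side, the interval of Oas2 (6.24 to 7.02) lay clear of that of Oas3 (4.02 to 4.73). The intervals of Oas3 and Oasl2 (3.65 to 4.04) overlapped slightly. The log2 ratio of Oas3 to Oasl2 was -2.08, -2.38 and -2.05 in the LINE-1 sgRNA libraries and -2.80 and -2.61 in the scramble libraries, so the groups did not overlap in this ratio, and the difference between the changes was not tested. The intervals of Oas1a (2.62 to 3.49), Oas1b (2.39 to 3.04) and Oas1g (2.06 to 3.16) overlapped each other. Oasl2 lay above the interval of Oas1a, and the upper end for Oasl1 (0.74 to 2.11) reached just into that of Oas1g.

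Levels between genes were compared per kb of exon, using the union of GENCODE exons. With LINE-1 sgRNA Oas2 was highest at 428 ± 44.9 normalized reads per kb (SD, n = 3), followed by Oas1a at 253 ± 3.49, Oasl2 at 231 ± 12.8 and Oas1b at 174 ± 26.3. Oas3 at 46.3 ± 3.38, Oas1g at 30.5 ± 1.91 and Oasl1 at 21.2 ± 1.68 were far lower. Oas1a had 256, 253 and 249 per kb in the LINE-1 sgRNA libraries and Oasl2 had 222, 246 and 226, an order that turns with the longest transcript of each gene as the length. Of the 50-base words in Oas1a 57.6% also occur in Oas1g, and how such reads were placed is not stated. The levels per kb of both genes are therefore uncertain in either group, as is the place of Oas1a against Oas2 with LINE-1 sgRNA.

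With scramble the order on this union length was another one. Oas1a at 32.3 ± 17.0 and Oas1b at 25.8 ± 2.98 normalized reads per kb (SD, n = 2) led, and their values overlapped between libraries. Oasl2 stood at 16.0 ± 1.85, Oasl1 at 8.63 ± 5.80, Oas1g at 4.69 ± 1.14, Oas2 at 4.32 ± 2.06 and Oas3 at 2.09 ± 0.0446. The ranges of Oasl1, Oas1g and Oas2 overlapped, so their order is not settled by these libraries.

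The make-up of the family signal shifted accordingly. Oas2 made up 35.1, 37.7 and 35.5% of the summed reads per kb with LINE-1 sgRNA and 4.99 and 3.97% with scramble. The share of Oas1a was 19.9 to 22.4% with LINE-1 sgRNA and 28.1 to 38.3% with scramble, and that of Oas1b was 13.0 to 15.5% with LINE-1 sgRNA and 24.2 to 33.0% with scramble. Oasl1 took 1.75 to 1.82% with LINE-1 sgRNA and 6.29 to 11.0% with scramble, while the Oasl2 ranges, 19.0 to 20.3% with LINE-1 sgRNA and 15.0 to 20.4% with scramble, overlapped. These shares depend on the exon length used: with the longest transcript of each gene, Oas2 averaged 31.5%, Oasl2 31.0% and Oas1a 16.6% in the LINE-1 sgRNA libraries. In the scramble libraries Oasl2 then came first at 28.7 ± 5.30%, with Oas1a at 26.7 ± 6.65% and Oas1b at 24.7 ± 4.55% (SD, n = 2), differences smaller than the spread between the libraries. With the longest transcript, the LINE-1 sgRNA shares of Oas2 (SD 1.30%) and Oasl2 (SD 0.869%) also differed by less than the spread between libraries. Whether Oas2 leads Oasl2, and the places of Oasl2, Oas1a and Oas1b, therefore depend on the choice of length. All shares also depend on how reads common to Oas1a and Oas1g were placed, which is not known.

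**Figure D3:**
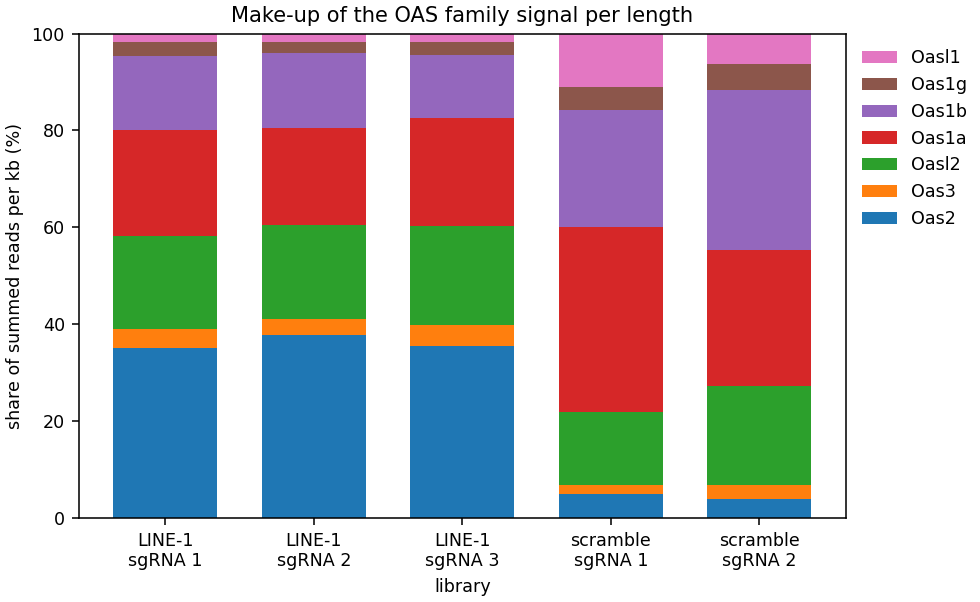
Share (%) of each OAS gene in the family's summed normalized reads per kb, 1 bar per library, the 3 LINE-1 sgRNA libraries left of the 2 scramble libraries. Oas2 fills 35.1 to 37.7% of the LINE-1 sgRNA bars and 3.97 to 4.99% of the scramble bars.

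Of the OAS1 copies outside the 7, Oas1d, Oas1e, Oas1f and Oas1h had fewer normalized reads than any of the 7. Oas1c was near Oas1g, with means of 72.5 and 71.3 with LINE-1 sgRNA and 14.4 and 11.0 with scramble. Oas1c, whose window holds the element shared with Oas1a and Oas1g, had 72.5, 75.0 and 70.0 normalized reads with LINE-1 sgRNA and 10.7 and 18.2 with scramble, a rise of 2.29 (SE 0.28, limma adjusted p = 3.7e-06). The antisense gene Gm43069 overlaps exons of Oas1c, so these reads may be shared. Oas1e, Oas1f and Oas1h had 5.25 to 14.0 normalized reads with LINE-1 sgRNA and 1.82 to 2.14 with scramble. Their means were below the filter of 10, and the scramble values are 2 reads each, so no test or fold is given; all their LINE-1 sgRNA values were above both scramble values. Oas1d, at 3.50 to 6.17 with LINE-1 sgRNA and 2.14 to 3.64 with scramble, overlapped between groups.

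Of 4 genes listed around 2-5A, 1 rose and 2 fell, with a median of -0.062. Over all tested genes 18.2% were called higher and 25.4% lower, and so short a list cannot be told from these shares. Mb21d1, the gene of cGAS, a DNA sensor with the same fold as OAS enzymes, rose by 0.87 (limma adjusted p = 2.0e-07), with 1681 to 1770 normalized reads with LINE-1 sgRNA and 844 and 1057 with scramble. Abce1, known for ribosome recycling, fell by 0.19 (limma adjusted p = 0.0086), and Akap7, an enzyme that breaks down 2-5A, fell by 0.34 (limma adjusted p = 0.012). Neither fall passed when libraries were scaled to equal table totals (adjusted p = 0.092 and 0.075). The fall of Abce1 did not pass without scramble library 2, nor that of Akap7 without LINE-1 sgRNA library 3 or without scramble library 1. Pde12, another 2-5A degrading enzyme, had a change of 0.063 (95% interval -0.098 to 0.22).

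Among interferon signalling genes several transcription factors rose, and no receptor or kinase gene passed as higher. The receptor and kinase genes are too few to be told from the 18.2% called higher over all tested genes. Irf1, another factor of the list, had a change of 0.062 and did not pass (limma adjusted p = 0.49). The order of these changes and those of the OAS genes was not tested. Of 11 interferon signalling genes 6 rose and 1 fell, with a median of 0.61. The shares over all tested genes were 18.2% higher and 25.4% lower. Irf7, a factor induced by interferon, rose by 2.86, with 414 to 490 normalized reads with LINE-1 sgRNA and 69.6 and 52.7 with scramble. Stat2 rose by 2.01 and Irf9 by 1.75, both parts of ISGF3, and Usp18, a brake on the receptor, by 1.79 (limma adjusted p of the 4 at most 3.1e-10). Ifnar2, a receptor chain singled out as the only fall, fell by 0.25 (limma adjusted p = 0.011), and did not pass with table totals, in DESeq2 or without scramble library 2. Ifnar1, Jak1 and Tyk2 had changes of -0.067, -0.12 and 0.023 and did not pass.

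Of 10 genes that sense or handle double-stranded RNA, 8 rose and 1 fell, with a median of 1.21. Again, 18.2% of all tested genes were called higher and 25.4% lower. Ddx60, an interferon-induced helicase, rose by 2.54, Ddx58, which encodes the sensor RIG-I, by 1.67, Adar, an RNA editing enzyme, by 1.18 and Eif2ak2, the kinase PKR, by 0.99 (limma adjusted p of the 4 at most 6.9e-10). Prkra, a protein activator of PKR singled out as the only fall, fell by 0.55 (limma adjusted p = 1.7e-05). The median of either list was below that of the 7 OAS genes.

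**Figure D4:**
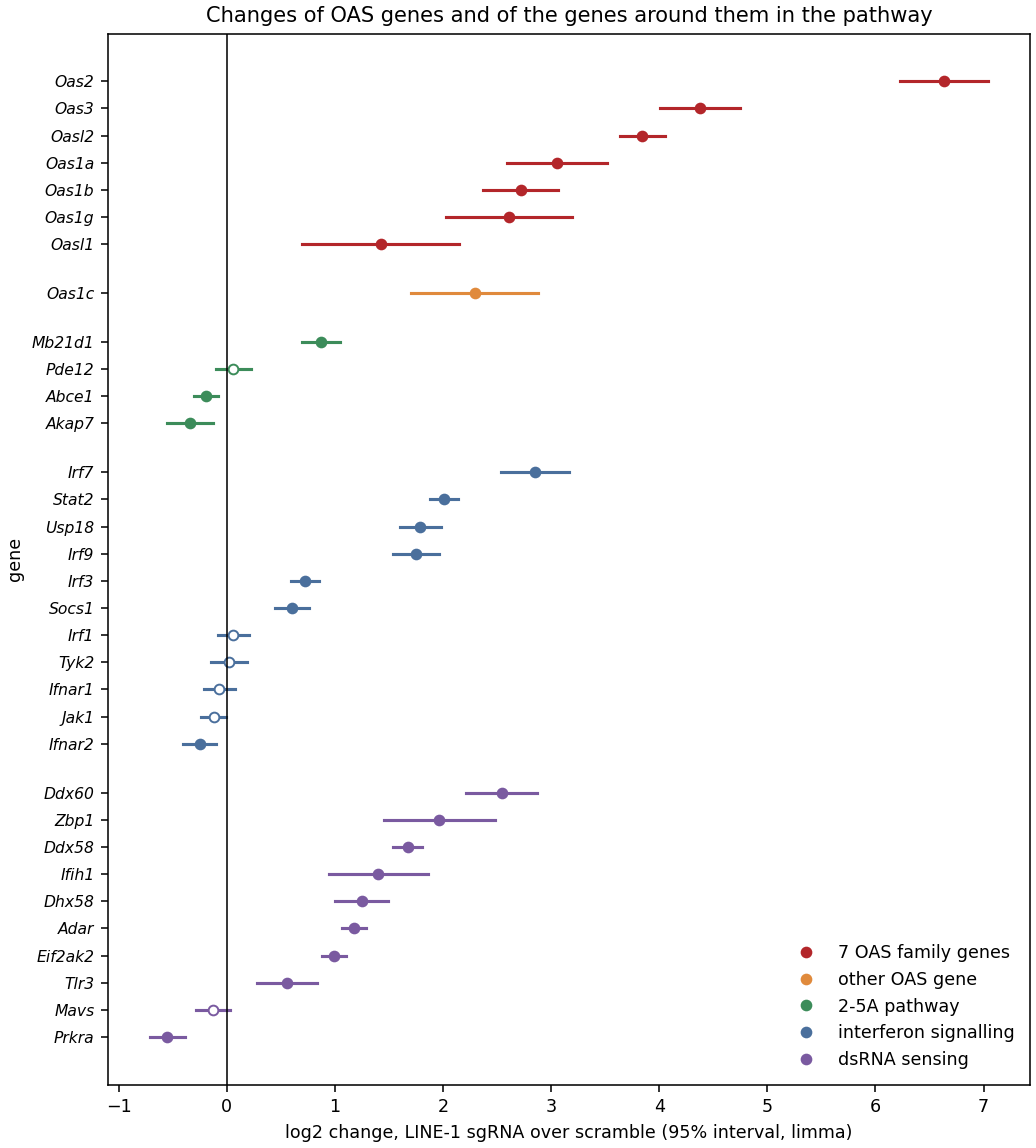
Change on the log2 scale (LINE-1 sgRNA over scramble, points with 95% limma intervals) of the 7 OAS genes, Oas1c and the tested genes of the 3 pathway lists; filled points passed at an adjusted p below 0.05. The OAS genes run from 6.63 for Oas2 to 1.42 for Oasl1, and open points stand for genes that did not pass, such as Pde12 at 0.063.

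Genes near the OAS loci were also followed, taking tested genes of the table within 100 kb of a member. Of 7 such genes 3 rose and none fell, against 18.2% called higher and 25.4% called lower over all tested genes. A list of this length cannot be told from these shares. One of the 3 is Oas1c. Rph3a, the gene of the synaptic vesicle protein rabphilin and 32978 bases from Oas1a, had 270.1, 274 and 221 normalized reads with LINE-1 sgRNA and 2.14 and 2.73 with scramble (change 6.22, SE 0.25, limma adjusted p = 1.6e-12). With 2 and 3 scramble reads its ratio was 105 with a 95% counting interval of 44.7 to 323. 4930519G04Rik rose by 1.05 (limma adjusted p = 0.043), a call lost without LINE-1 sgRNA library 1, 2 or 3, without scramble library 2, without the filter, in DESeq2 and with the replicate block. Ankrd13a, Sppl3, 2210016L21Rik and Cfap73 had changes between -0.017 and 0.51 and did not pass. Both Ankrd13a and 2210016L21Rik passed with table totals, the second also on leaving out LINE-1 sgRNA library 2.

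**Figure D5:**
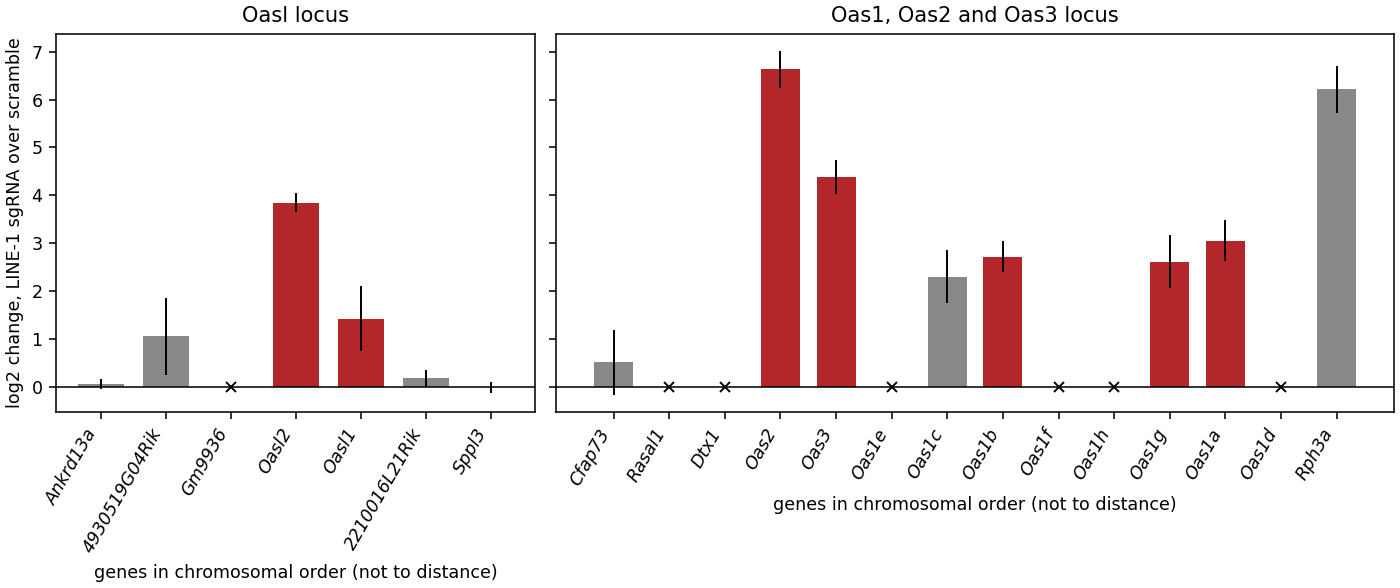
Change on the log2 scale (bars, with 2 SE from limma) of the OAS genes (red) and of other genes within 100 kb (grey), in chromosomal order and not to distance; crosses mark genes below the filter, which have no bar. Rph3a, at 6.22, is the only grey bar near the height of Oas2.

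The gene most like the family's median profile over the 5 libraries was Ifi44, an interferon-stimulated gene, with a Euclidean distance of 0.276 between centred log2 values. Ifi44 had 660, 616 and 569 normalized reads with LINE-1 sgRNA and 78.2 and 41.8 with scramble. Prima1 (0.296), Angpt4 (0.304), Col23a1 (0.310) and Ces1g (0.314) followed. With 2 groups this measure mostly matches the size of the change and the spread between the scramble libraries.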

How the data were processed

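The deposited workbook gives each gene 1 value per library, a signal that the authors normalized (its name speaks of normalized counts). Tools listed in the submitters' processing notes are DESeq2, SAMtools (1.9), bedtools (2.27.1), Bowtie2 (2.2.9) and STAR (2.5.3a), and builds mm10 and GRCm38; roles, counting and strand settings are not stated there. Within 0.0001 reads, 100% of gene values were whole multiples of the library's smallest value above 0, so whole reads were recovered. The full gene table was fitted in R 4.3.3 with limma 3.58.1 (variance trend) on log2(value + 1), which understates changes of scarce genes. Genes averaging at least 10 were tested, with Benjamini-Hochberg adjustment over all 14337, and called at an adjusted p below 0.05. Alternatives were edgeR 4.0.16 and DESeq2 1.42.0 on recovered reads, other pseudocounts, filters and scalings, a replicate block and leaving out each library. The fit was tested on simulated data. Chi-square per degree of freedom between libraries of a group was 3.01 to 8.66, above the 1 of pure counting error, so none was a resequenced copy of another; whether they share a culture is not known.

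The members and gene lists were chosen with earlier results of these data known. The text names all 7 members, the other OAS and 2-5A genes, the 4 genes with the smallest p of the other pathway lists, tested genes within 100 kb of a member, and the 5 genes with the most similar profile. Of the genes these rules take in, 3 are not reported here, and counts over lists and neighbours leave them out. Counting intervals cover counting error only.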

Additional observations from a re-analysis of the deposited data

How the results depend on the processing

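Oas1a, Oas1b, Oas1g, Oas2, Oas3 and Oasl2 rose and passed in every setting in which they were tested. Oasl1 (1.42) did not pass without the variance trend (1.42, adjusted p = 0.062), and ranged from 0.72 to 2.13 when a library was left out. With a mean of at least 50 Oas1g and Oasl1 were not tested and 5 members passed. Calls over all genes, 2606 higher and 3637 lower (41.7% higher), became 3280 and 2136 (60.6%) with table totals, 2980 and 2622 (53.2%) with TMM factors, 2226 and 2332 without the variance trend, 3039 and 2583 (54.1%) in edgeR and 2808 and 2430 (53.6%) in DESeq2. The falls among the 2-5A genes (2) numbered 0 with table totals and without the variance trend, 1 with TMM factors and 1 in edgeR, and 1 to 2 when a library was left out. The single fall among interferon signalling genes became 0 with table totals and in DESeq2, and 0 to 2 when a library was left out.

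With longest transcripts, the mean shares per length in LINE-1 sgRNA libraries were 16.6% for Oas1a (main 21.4%), 12.3% for Oas1b (14.6%), 31.5% for Oas2 (36.1%), 4.57% for Oas3 (3.93%), 1.66% for Oasl1 (1.79%) and 31.0% for Oasl2 (19.6%). Signs turned for genes without a call. Leaving out a library gave -0.0098 to 0.14 for Pde12 and -0.043 to 0.0073 for Sppl3, which was 0.066 with table totals, 0.034 with TMM factors, 0.042 in edgeR, 0.040 in DESeq2 and 0.0073 with the replicate block. Whether equal replicate numbers mark libraries handled together is not stated. The correlation of deviations was -0.008 for number 1 and 0.066 for number 2. It was 0.073 for the unmatched LINE-1 sgRNA library 3 and scramble library 1. With 2 scramble libraries the deviations mirror each other, so these values cannot decide it. With the replicate numbers as a block 2667 genes were higher and 3906 lower, all 7 members passed and Oas2 rose by 6.69. The scarce scramble reads of Oas2, Oas3, Oas1g and Oasl1 limit the precision of their folds.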

Other observations

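The scramble libraries were not alike for every OAS gene. Scramble library 1 held 2.81 times the level of scramble library 2 for Oasl1, 2.19 times for Oas1a and 2.02 times for Oas2, a ratio that 1.71% of all tested genes reached at 2 or above. These ratios rest on 31 and 13 reads for Oasl1, 78 and 42 for Oas1a and 24 and 14 for Oas2. The 1.71% covers genes of all levels, so it is not a like background for genes with so few reads. For Oas3, Oas1b, Oasl2 and Oas1g the ratios were 1.03, 1.18, 1.18 and 1.41, and for Stat2, Usp18 and Irf7 they were 1.13, 1.24 and 1.32.

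Apol9a and Apol9b, the other genes with the 16-base promoter element of Oas1a, Oas1c and Oas1g, were looked up after that match was seen. These apolipoprotein L genes are near copies of each other, so reads may be split between them. Apol9a had 897, 852 and 896 normalized reads with LINE-1 sgRNA and 277 and 218 with scramble, a rise of 1.84 (SE 0.10, limma adjusted p = 2.5e-10). Apol9b had 619, 524 and 546 with LINE-1 sgRNA and 171 and 154 with scramble, a rise of 1.78 (SE 0.11, limma adjusted p = 1.3e-09).

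Dtx1 and Rasal1, between Cfap73 and Oas2, were below the filter, at 6.17 to 11.5 and 6.13 to 7.72 normalized reads with LINE-1 sgRNA and at 0 and 1.82 with scramble for both genes.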
